A study of Mus musculus with 6 samples.

Results

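Psca, Plac8, Crym and Wfdc17 are 4 of the 32285 genes counted in 2 organoid libraries, chosen by their measured levels: they were among the genes with the highest ratio in epithelial barcodes when alveolar type 2 epithelial cells (AEC2s) were grown with fibrogenic rather than normal fibroblasts (FBs). Since the epithelial difference selected them, it is given as a description with no test. Psca and Crym were higher in epithelial barcodes than in FBs, Psca mostly in PATS-like and Crym mostly in AEC2-like barcodes. Plac8 and Wfdc17 were higher in FBs, and their epithelial level stayed below 2% of the FB level in both libraries.

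Psca (prostate stem cell antigen) is a small GPI-anchored surface protein of the Ly6/uPAR family. Crym (mu-crystallin) is an NADPH-regulated cytosolic protein that binds thyroid hormone. Plac8 (placenta-specific 8) is a small cysteine-rich protein, and Wfdc17 is a secreted protein with a whey acidic protein (WAP) core domain that is known from activated macrophages. AEC2s make surfactant and are the progenitors of the gas-exchanging AEC1s. On the way to AEC1s they pass through a keratin-rich transitional state called PATS (pre-alveolar type-1 transitional cell state).

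AEC2s came from SpcCreER mice with a tomato reporter, induced with tamoxifen and given no bleomycin, so that the reporter marks cells expressing surfactant protein C at induction. FBs were GFP+ cells of Pdgfra-GFP mice, a nuclear reporter of the Pdgfra gene, collected 14 days after 1 oropharyngeal dose of PBS (normal FBs) or of 2 U/kg bleomycin (fibrogenic FBs). Cells of each type were pooled from 3 mice and mixed at 10 AEC2s per FB by the labels (the methods of the study give cell numbers in which FBs outnumber AEC2s, so the ratio is uncertain), then cultured for 2 weeks in Matrigel, with 1 library per condition. The 4 other libraries were GFP+ lung cells of Pdgfra-GFP mice 14 days after the last dose, from 3 mice each, after 1 dose of PBS or 2 U/kg bleomycin (1 label field of the latter gives a higher dose) or after 3 weekly doses of PBS or of 1, 1 and 0.5 U/kg bleomycin. The methods state that the Pdgfra-GFP mice were males of 10 to 14 weeks.

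The organoid libraries held 5441 barcodes (normal FBs) and 8894 barcodes (fibrogenic FBs), with 211680702 and 238618743 UMIs (unique molecular identifiers, each a counted transcript). The fibrogenic library was shallower per barcode, with 60.1% of barcodes under 10000 UMIs, where the normal library had 30.3%. Epithelial barcodes were those with more epithelial than FB marker UMIs by at least 5-fold, at least 10000 UMIs and at most 25% mitochondrial UMIs. This left 1687 and 1300 epithelial barcodes, of similar median depth (42607 and 41716 UMIs). They were split by marker UMIs into AEC2-like (1231 and 902), AEC1-like (92 and 91), PATS-like (162 and 208) and cycling barcodes (198 and 90), with 4 and 9 left over. The gates used these same marker lists, so the marker levels by group describe the gates and are no check of the names. AEC2 markers made up 980 and 967 of every 10000 UMIs in AEC2-like barcodes and 5.97 and 5.70 in PATS-like barcodes, and PATS markers 98.4 and 102 of every 10000 UMIs in PATS-like and 9.39 and 9.03 in AEC2-like barcodes. Markers of airway basal cells were highest in PATS-like barcodes, at 1.31 and 0.781 of 10000 UMIs, and at or below 0.0149 in the other epithelial groups. Airway secretory markers were at 0.423 and 0.583 of 10000 UMIs over all epithelial barcodes. Erythrocyte markers were at or near 0. Myeloid markers were near 0 (0.08 and 0.10 of 10000 UMIs over all epithelial barcodes), while 5 and 16 barcodes outside the epithelial gate carried at least 4 of the 8 myeloid markers. The 2 libraries shared 13 barcode sequences, 1 of them epithelial.

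In GRCm38, Psca (ENSMUSG00000022598.6) lies on chromosome 15 from 74714839 to 74717069 on the plus strand, and Crym (ENSMUSG00000030905.5) on chromosome 7 from 120186380 to 120202111 on the minus strand. Plac8 (ENSMUSG00000029322.12) lies on chromosome 5 from 100553725 to 100572245 on the minus strand, and Wfdc17 (ENSMUSG00000069792.5) on chromosome 11 from 83703991 to 83706268 on the plus strand. The principal transcripts have 3 (Psca), 8 (Crym), 4 (Plac8) and 3 (Wfdc17) exons. No other annotated gene overlaps any of the 4, so reads were not shared with an overlapping gene. The nearest coding gene to Crym, Anks4b, ends 794 bases from its 3′ end on the opposite strand, and the nearest to Wfdc17 is its relative Wfdc18, 2747 bases away on the same strand. Sharing of reads between Wfdc17 and Wfdc18 was not tested.

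Of the 4 genes, RefSeq promoter sequences were held for Plac8 and Wfdc17. They are shown here because both genes were higher in FBs than in epithelial barcodes. Each is given as the bases 250 to 66 before the RefSeq start, read 5′ to 3′ on the strand of the gene. This stretch lies outside the annotated transcripts. Capitals mark the CCAAT box, found in each at 94 (Plac8) and 141 (Wfdc17) bases before the start.
Plac8, chr5:100572271-100572455, minus strand: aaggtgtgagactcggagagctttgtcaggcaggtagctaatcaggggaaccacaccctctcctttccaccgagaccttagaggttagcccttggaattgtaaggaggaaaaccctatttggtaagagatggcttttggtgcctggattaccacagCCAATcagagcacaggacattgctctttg
Wfdc17, chr11:83703806-83703990, plus strand: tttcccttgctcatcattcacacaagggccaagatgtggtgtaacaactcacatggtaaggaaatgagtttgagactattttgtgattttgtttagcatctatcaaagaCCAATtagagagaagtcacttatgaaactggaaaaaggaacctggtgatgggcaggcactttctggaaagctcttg
The letters CCAAT, on either strand, stood in 25.9% of the 32851 RefSeq mouse promoters over the same window. Neither stretch held the AP-1 motif, written TGANTCA and found in 5.06% of the promoters over this window, on either strand. The STAT motif TTCNNNGAA, found in 5.38%, was also absent from both. The TEAD motif and its letters GGAATG were in 9.98% of the promoters and in neither stretch. The same held for the TATA box, searched as TATAAA and found in 8.55%, and for the interferon response element, found in 2.29%. No other motif was searched. A match or its absence in this window is a description of the letters only.

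Over all epithelial barcodes, Psca was at 2.55 counts per 1000000 UMIs (CPM) with normal FBs (203 UMIs, 95% Poisson interval 2.22 to 2.93) and at 10.8 CPM with fibrogenic FBs (635 UMIs, 9.99 to 11.7), a 4.23-fold higher level (exact interval of the ratio 3.61 to 4.98). Crym was at 27.0 CPM (2145 UMIs) and 78.8 CPM (4629 UMIs), 2.92-fold higher (2.77 to 3.08). Plac8 was at 2.08 CPM (165 UMIs) and 6.61 CPM (388 UMIs), 3.18-fold higher (2.65 to 3.84). Wfdc17 was at 0.692 CPM (55 UMIs) and 2.98 CPM (175 UMIs), 4.31-fold higher (3.16 to 5.94). Crym was thus the most abundant of the 4 by CPM in both libraries, and only Crym exceeded 11 CPM. The intervals cover counting error only and take UMIs as independent. They leave out the spread between barcodes, although the 5 highest barcodes held 55.7% and 71.5% of the Psca UMIs. They also leave out the error between cultures, which is unknown with 1 library per condition.

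As log2 ratios after adding 1 CPM, the 4 genes were at 1.73 (Psca), 1.51 (Crym), 1.31 (Plac8) and 1.23 (Wfdc17), which placed them 2nd, 4th, 13th and 18th from the highest of 13412 genes with at least 100 UMIs. The median gene was at 0.04. Genes at a log2 ratio of 1 or more made up 0.328% of those 13412 genes and genes at minus 1 or less 0.149%, and since the choice of the 4 genes used this ratio nothing is read from it. The next gene below Wfdc17, Sfrp1, was at 1.15. Of the 18 highest genes, 13 were at a higher level in FBs than in epithelial barcodes of the fibrogenic library, and 11 of these more than 10 times higher, among them Cxcl12, Vim, Mmp3 and Timp1. The 5 that were lower in FBs were Psca, Crym, Nppb, Clstn2 and Unc13c.

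**Figure D1:**
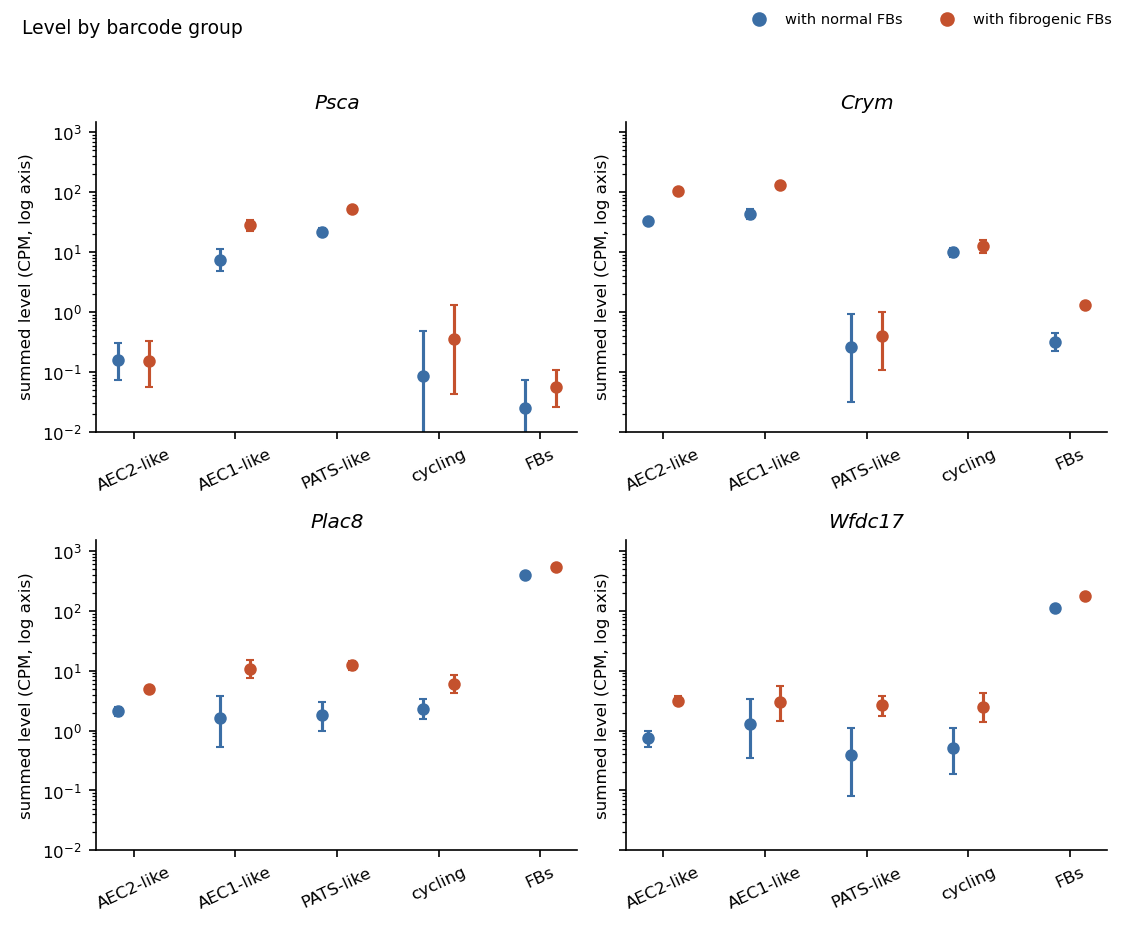
Summed level of each gene in CPM (log axis) by barcode group and library, with 95% Poisson intervals; FBs are FB barcodes of at least 10000 UMIs, and a bar that reaches the lower edge continues below it. Among the groups shown, Psca was highest in PATS-like barcodes and Crym in AEC2-like and AEC1-like barcodes. Plac8 and Wfdc17 were highest in FBs among these groups, at 395 and 532 CPM and at 112 and 178 CPM.

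Psca lay in PATS-like barcodes. These held 83.7% of the epithelial Psca UMIs with normal FBs and 84.1% with fibrogenic FBs, although they were 9.60% and 16% of the epithelial barcodes. The Psca level in PATS-like barcodes was 21.8 CPM (170 UMIs) with normal FBs and 52.2 CPM (534 UMIs) with fibrogenic FBs, 2.39-fold higher (2.01 to 2.86). In AEC1-like barcodes it was 7.5 CPM (23 UMIs) and 27.8 CPM (93 UMIs), 3.70-fold higher (2.33 to 6.13). That level came from 3 and 6 barcodes, and the thinned positive shares there were 2.17% and 2.20%. The 2 and 3 AEC1-like barcodes with at least 2 Psca UMIs had median PATS marker levels of 81.3 and 69.2 of 10000 UMIs, against 32.4 and 29.3 in those with none. AEC2-like barcodes held 9 and 6 UMIs of Psca in all, 0.158 and 0.153 CPM, and FBs of at least 10000 UMIs held 3 and 9 UMIs. The ratio within PATS-like barcodes was thus smaller than the 4.23-fold ratio over all epithelial barcodes, in which the PATS-like share also differed. With equal weight to the 5 groups the log2 ratio was 1.31 in place of 1.73.

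Few barcodes carried Psca. With each barcode thinned to 10000 UMIs, 17 of 1687 epithelial barcodes had a Psca UMI with normal FBs (1.01%, 95% Clopper-Pearson interval 0.588 to 1.61%) and 25 of 1300 with fibrogenic FBs (1.92%, 1.25 to 2.83%). Without thinning the shares were 2.37% and 4.62%. In PATS-like barcodes the thinned shares were 8.64% (4.81 to 14.1%) and 11.1% (7.14 to 16.1%), and these intervals overlap widely. The mean in PATS-like barcodes with a UMI was 2.21 and 3.30 thinned UMIs. The share in FBs, which should lack the gene, was 0.101% and 0.00% of thinned barcodes.

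The 5 epithelial barcodes with most Psca UMIs held 113 of the 203 UMIs with normal FBs and 454 of the 635 with fibrogenic FBs, and each set was made of 4 PATS-like barcodes and 1 AEC1-like barcode. Without these 5 barcodes in each library the levels were 1.14 and 3.11 CPM, 2.74-fold higher with fibrogenic FBs (2.11 to 3.56). In AEC1-like barcodes 1 barcode held 70 of the 93 fibrogenic UMIs, and without the highest barcode of each library the levels there were 2.96 and 7.06 CPM (9 and 23 UMIs). One of the 5 fibrogenic barcodes, with 121 Psca UMIs, also held 41 Plac8 UMIs and FB markers at 24.9 of 10000 UMIs, against 1.99 over all PATS-like barcodes of that library. Barcodes with at least 2 of the 8 myeloid markers held 301 of the 635 Psca UMIs in 35 barcodes with fibrogenic FBs, and without them Psca was at 2.42 and 5.93 CPM, 2.45-fold higher (2.04 to 2.94). Among the 5 highest fibrogenic barcodes the myeloid markers seen were Cd68, Csf1r and Ctss. The part of mixed barcodes in the Psca level was not tested.

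Within PATS-like barcodes, those with at least 2 Psca UMIs (19 with normal and 31 with fibrogenic FBs) were deeper than those with none (132 and 162), at median depths of 54203 and 55337 against 41954.5 and 42584.5 UMIs. Their median PATS marker level was 95.8 and 136 of 10000 UMIs, against 89.9 and 88.7 in those with none. Their median AEC1 marker level was 8.38 and 27.9 of 10000 UMIs, against 4.53 and 5.57. Ranked in the fibrogenic library over thinned epithelial barcodes, the 3 genes whose log counts were most like those of Psca were Cavin3 (Pearson r = 0.32 over 1300 fibrogenic and 0.30 over 1687 normal barcodes), Plet1 (0.29 and 0.20) and AW112010 (0.28 and 0.21), out of 11533 genes. The order differed in the normal library, where Msln (r = 0.35) and Tpm2 (0.31) stood above Cavin3. Cavin3 encodes a protein of caveolae, the membrane pits that are abundant in AEC1s. These barcodes share a library and a depth, and the correlations are given as a description. Psca correlated positively with the PATS marker Cldn4 (r = 0.23 and 0.21) and negatively with the AEC2 marker Sftpc (r = -0.22 and -0.23). Its correlation with the AEC1 marker Ager was near 0 (r = 0.01 and -0.04).

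Crym lay in AEC2-like and AEC1-like barcodes. AEC2-like barcodes held 88.3% of its epithelial UMIs with normal FBs and 88.7% with fibrogenic FBs. The gate placed non-cycling barcodes past the AEC2 limit in this group whatever their AEC1 marker level. The level in AEC2-like barcodes was 33.3 CPM (1895 UMIs) and 104 CPM (4107 UMIs), 3.14-fold higher with fibrogenic FBs (2.97 to 3.32). In AEC1-like barcodes it was 43.4 CPM (133 UMIs) and 131 CPM (438 UMIs), 3.02-fold higher (2.48 to 3.69). That level came from 10 and 18 barcodes, and without the highest barcode of each library it was 27.7 and 96.1 CPM. In cycling barcodes, which also carried AEC2 markers, it was 9.90 and 12.5 CPM, and the interval of that ratio (0.92 to 1.72) includes equality, with 3.30 and 3.07 CPM when the barcode with most Crym UMIs was left out of each library. PATS-like barcodes held 2 and 4 Crym UMIs in all. FBs were at 0.318 and 1.29 CPM, 1.18% and 1.64% of the epithelial level, where the share was 3.87% and 2.53% for the AEC2 marker Sftpc, 2.05% and 1.43% for Epcam and 0.598% and 0.881% for Cldn4.

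**Figure D2:**
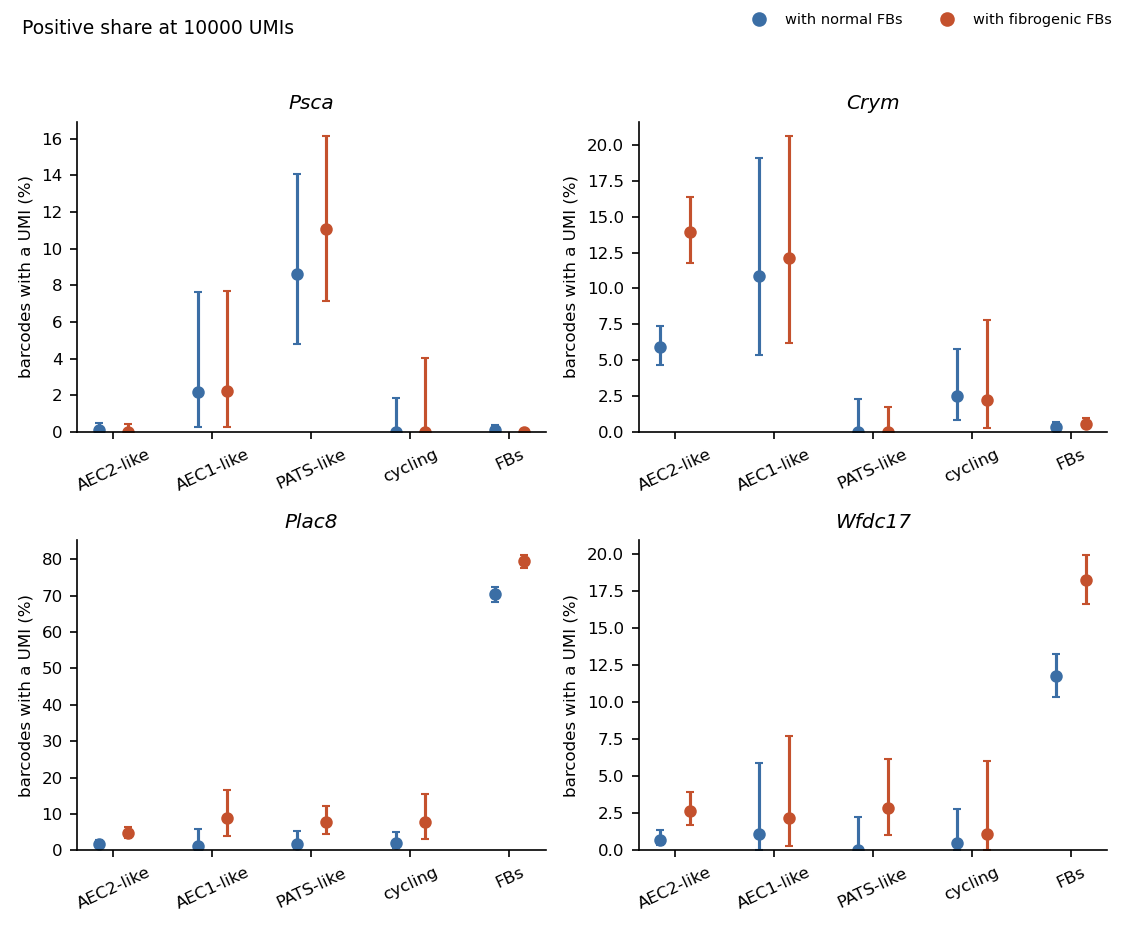
Share of barcodes with at least 1 UMI of each gene after thinning every barcode to 10000 UMIs, by group and library, with 95% Clopper-Pearson intervals and a separate linear axis for each gene. The Crym share in AEC2-like barcodes was 5.93% with normal and 14.0% with fibrogenic FBs. The Psca share in PATS-like barcodes was 8.64% and 11.1%. The intervals take barcodes of 1 library as independent and leave out the error between cultures. Their overlap is no test, and the genes were chosen on this contrast.

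The share of barcodes with Crym and the mean in those barcodes were both higher with fibrogenic FBs over all epithelial barcodes. In the 235 and 56 epithelial barcodes without a collagen UMI the direction was the opposite, with Crym at 52.2 and 25.6 CPM (406 and 41 UMIs). In thinned AEC2-like barcodes the positive share was 5.93% (73 of 1231, 4.68 to 7.40%) and 14.0% (126 of 902, 11.8 to 16.4%). The mean in barcodes with a UMI was 6.70 and 8.98 thinned UMIs. Over all epithelial barcodes the thinned shares were 5.22% and 10.8% and the unthinned shares 8.95% and 17.4%. In AEC1-like barcodes the thinned shares, 10.9% (10 of 92) and 12.1% (11 of 91), had intervals that overlap almost wholly. Among thinned epithelial barcodes 7 of 1687 and 19 of 1300 had 20 or more Crym UMIs, so most of the level came from a minority of barcodes. Without the 5 highest barcodes in each library Crym was at 19.8 and 65.0 CPM, 3.29-fold higher (3.10 to 3.49).

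Crym-carrying AEC2-like barcodes had more AEC1 transcripts than other AEC2-like barcodes in both libraries. With at least 2 Crym UMIs (84 and 137 barcodes), the median AEC1 marker level was 60.0 and 33.2 of 10000 UMIs, against 15.4 and 12.4 in those with none (1106 and 706). Hopx, an AEC1 marker, was at 1372 and 887 CPM in the first and at 170 and 188 CPM in the second. Lamp3, a marker of AEC2 lamellar bodies, was at 275 and 346 CPM against 674 and 675 CPM. Sftpc was at 65264 and 83857 CPM against 82710 and 82175 CPM and the median AEC2 marker level was 634 and 999 of 10000 UMIs against 989 and 994, in barcodes that the gate had already required to carry AEC2 markers. Their median depth was lower (35429 and 34496 against 42731.5 and 42698.5 UMIs).

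The gene most like Crym in the fibrogenic library was Tmem159, which encodes a membrane protein of lipid droplet assembly (r = 0.53 over 1300 fibrogenic and 0.43 over 1687 normal barcodes), followed by Galnt18 (0.32 and 0.29) and Nebl (0.31 and 0.29), while in the normal library Akap5 (0.30) stood above the latter pair. Tmem159 lies on the same chromosome, 7, from 120102353 to 120120992 on the opposite strand, 65388 bases from Crym, with Anks4b among the genes between them. In AEC2-like barcodes with at least 2 Crym UMIs, Tmem159 was at 235 and 305 CPM, against 31.3 and 47.7 CPM in those with none. Crym correlated positively with the AEC1 marker Ager (r = 0.28 and 0.23) and negatively with Lamp3 (-0.11 and -0.20) and Krt8 (-0.20 and -0.14). With the AEC2 marker Sftpc the correlation was positive with fibrogenic FBs (0.11) and near 0 with normal FBs (0.001).

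None of the thinned epithelial barcodes held both Psca and Crym, in either library, but the product of their shares was only 0.0526% of 1687 and 0.207% of 1300 barcodes, too few for separation to be read from it. Any pair of the 4 genes was found in 2 of 1687 and 13 of 1300 thinned epithelial barcodes, and no barcode held 3. With fibrogenic FBs 9 of those barcodes held Plac8 with Crym (0.692%, where the product of the shares was 0.613%). In the 4 marker-based groups separately, genes at a log2 ratio of 1 or more made up 0.257% of genes with at least 100 UMIs in AEC2-like, 0.624% in AEC1-like, 0.529% in PATS-like and 0.191% in cycling barcodes. Of the members with enough UMIs in a group, Crym and Wfdc17 but not Plac8 (0.92) reached that ratio in AEC2-like barcodes. Psca and Crym reached it in AEC1-like, and Psca and Plac8 in PATS-like barcodes, while the single one in cycling barcodes, Crym, did not. The 100 UMIs were those of both libraries together. Plac8 in PATS-like (14 and 127 UMIs) and Wfdc17 in AEC2-like barcodes (42 and 124) passed only through the fibrogenic library. Psca in AEC1-like barcodes (23 and 93) passed mostly through it. Since the choice of the 4 genes used the same contrast, nothing is read from these calls.

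Plac8 was far higher in FBs than in epithelial barcodes. FBs of at least 10000 UMIs (1985 and 2132) had 395 CPM with normal and 532 CPM with fibrogenic FBs, 1.35-fold higher (1.33 to 1.36), and 70.4% (68.3 to 72.4%) and 79.4% (77.6 to 81.1%) of thinned FB barcodes had a Plac8 UMI. FB barcodes of all depths (2341 and 4723) were at 394 and 531 CPM. The epithelial level was 0.526% and 1.24% of the FB level. It was spread over all epithelial groups with normal FBs, at 2.09 CPM in AEC2-like, 1.63 in AEC1-like, 1.80 in PATS-like and 2.33 in cycling barcodes, with intervals that overlap. With fibrogenic FBs it was 4.86, 10.8, 12.4 and 6.08 CPM in the same order. The AEC1-like levels rest on 5 and 36 UMIs, and 1 barcode held 11 of the 36. FB markers with fibrogenic FBs were at 1.01, 1.20, 1.99 and 1.00 of 10000 UMIs in the same order of groups. Of the 127 PATS-like UMIs in that library 41 came from the single barcode with high FB markers, and without the highest barcode of each library the PATS-like levels were 1.57 and 8.55 CPM. Among barcodes thinned to 10000 UMIs, 31 of 1687 (1.84%) and 74 of 1300 (5.69%) epithelial barcodes had a Plac8 UMI, and 30 and 67 of them had a single one.

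Wfdc17 was also far higher in FBs, and in a minority of them. It was at 112 and 178 CPM in FBs of at least 10000 UMIs, 1.58-fold higher with fibrogenic FBs (1.55 to 1.61). The 8 myeloid markers together were also higher in these FB barcodes, at 0.0545 and 0.182 of 10000 UMIs, with Tyrobp at 0.00837 and 3.35 CPM (1 and 534 UMIs), Ptprc at 0.0419 and 0.432 CPM and Cd68 at 2.74 and 4.54 CPM. Wfdc17 correlated with Tyrobp at r = 0.22 over the 2132 fibrogenic FB barcodes. Only 11.7% (10.4 to 13.2%) and 18.2% (16.6 to 19.9%) of thinned FB barcodes had a UMI, with a mean of 9.58 and 11.1 UMIs in those that did, and 35 and 53 FB barcodes had 20 or more. The epithelial level was 0.616% and 1.68% of the FB level. By group it was 0.385 to 1.30 CPM with normal and 2.5 to 3.16 CPM with fibrogenic FBs, and 3 of the 4 groups held only 3 to 6 UMIs with normal FBs, too few to compare groups. The 5 and 16 myeloid barcodes were at 5468 and 4999 CPM and held 8.70% and 20.1% of all Wfdc17 UMIs of their library. FB barcodes with fewer than 2 myeloid markers were at 112 and 165 CPM, 1.47-fold higher with fibrogenic FBs (1.44 to 1.5).

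In FBs, genes at a log2 ratio of 1 or more made up 0.36% of 15000 genes and genes at minus 1 or less 0.873%, and none of the 3 members with enough UMIs passed it. Plac8 (0.43) and Wfdc17 (0.63) were below it, and Crym was at 0.92, from 0.315 to 1.49 CPM (38 and 248 UMIs). Without the added 1 CPM, Crym in FBs was 4.72-fold higher with fibrogenic FBs (3.35 to 6.83). Its log2 ratio was thus held down by adding 1 CPM to low levels. Single FB barcodes held up to 13 and 37 of these UMIs. With FB barcodes carrying a UMI of the epithelial genes Epcam or Cdh1 left out, Crym in FBs was at 0.183 and 0.619 CPM. That is a 3.38-fold higher level, from 18 and 77 UMIs. Plac8 and Wfdc17 correlated weakly with each other over FB barcodes (r = 0.14 over 2132 fibrogenic and 0.18 over 1985 normal). Chosen after their values were seen and ranked in the fibrogenic library, the genes most like Plac8 in FBs were Ifitm3 (r = 0.45 and 0.47) and Gpi1 (0.43 and 0.40). Those most like Wfdc17 in that library were the acute-phase gene Serpina3n (0.28 and 0.16), Selenop (0.24 and 0.13) and Cpxm1 (0.23 and 0.22), with the complement gene C3 (0.23 and 0.17) and the matrix genes Fbln1 (0.23 and 0.26) and Col14a1 (0.22 and 0.18) next.

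The RNA of FB genes in epithelial barcodes differed between the libraries in the same direction. Of the 6 FB markers, Col1a1 was at 20.2 and 37.7 CPM in epithelial barcodes with normal and fibrogenic FBs, Col1a2 at 13.9 and 31.4, Col3a1 at 21.4 and 41.8, Dcn at 3.73 and 5.86, Pdgfra at 0.302 and 0.954, and Mfap4 at 1.03 and 1.74. These are 0.402% to 0.716% of the FB level with normal FBs and 0.952% to 1.83% with fibrogenic FBs. Mgp, an abundant matrix gene of FBs that no gate used, was at 321 and 577 CPM, 0.582% and 1.41% of its FB level, although its FB level was lower in the fibrogenic library. Cxcl12, the gene with the highest epithelial ratio, was at 0.761% and 1.96% of its FB level.

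The 91 genes with at least 100 CPM in FBs and at least 50 times their epithelial level in both libraries, a set drawn after the values were seen, show the same. Their median epithelial level was 0.581% of the FB level with normal FBs (10th to 90th percentile 0.361 to 0.946%) and 1.33% with fibrogenic FBs (0.716 to 1.74%), below 2% by the way they were drawn. The percentage was higher with fibrogenic FBs for 91 of 91 genes, and the epithelial CPM itself for 90 of 91, by a median of 2.13-fold (10th to 90th percentile 1.29 to 3.16). Plac8 (0.526% and 1.24%, 3.18-fold) and Wfdc17 (0.616% and 1.68%, 4.31-fold) belong to the set and sit within the range of the percentages in both libraries, with epithelial folds above the 90th percentile. FB RNA in epithelial barcodes and transcription in epithelial cells cannot be told apart in these counts, and the share of either in the Plac8 and Wfdc17 levels was not tested.

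**Figure D3:**
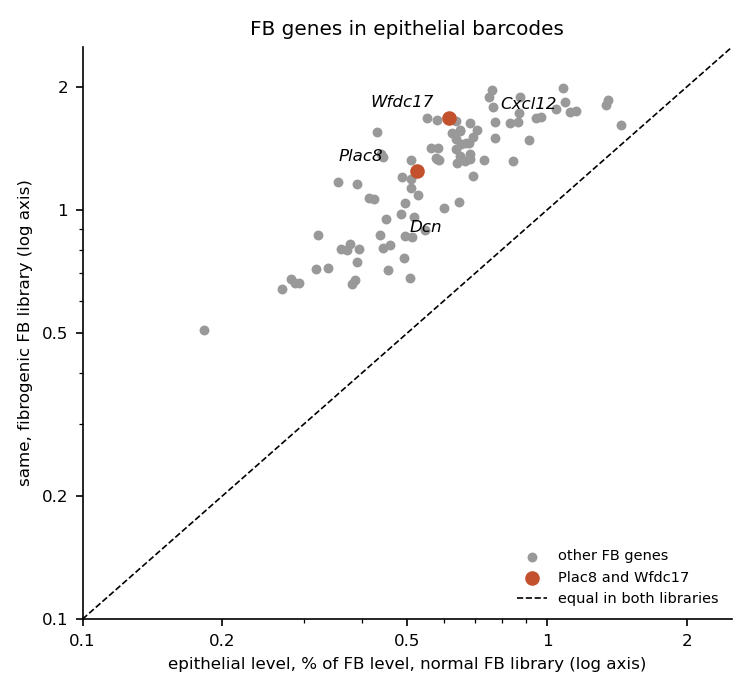
Level in epithelial barcodes as a percentage of the level in FBs, with normal FBs (x, log axis) against fibrogenic FBs (y, log axis), for the 91 FB genes; 1 point is 1 gene and the dashed line marks equal percentages. All 91 points lie above the line, and Plac8 and Wfdc17 lie within the cloud of the other 89 genes.

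Most epithelial barcodes held FB transcripts. Of the epithelial barcodes, 86.1% with normal FBs and 95.7% with fibrogenic FBs had at least 1 UMI of Col1a1, Col1a2 or Col3a1. The barcodes without any were 235 and 56, of lower median depth (33604 and 28613.5 UMIs), and in them the members were at few UMIs. Psca had 5 UMIs and 0 UMIs, which allows up to 3 UMIs with fibrogenic FBs. Plac8 had 11 and 7 UMIs (1.41 and 4.37 CPM, 3.09-fold with an interval of 1.01 to 8.72) and Wfdc17 1 and 4 UMIs. Crym had 406 and 41 UMIs, 52.2 and 25.6 CPM. This was 0.49-fold with fibrogenic FBs in these barcodes (0.35 to 0.68), against 2.92-fold higher over all epithelial barcodes. That interval takes UMIs as independent. The spread of Crym between these barcodes was not measured, so the lower level is uncertain. Of the 56 fibrogenic barcodes 39 were AEC2-like, and of the 235 normal ones 180.

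The lists of genes related to the members by family or function were short, and with 0.328% of all genes at a log2 ratio of 1 or more and 0.149% at minus 1 or less a count of 0 in such a list is no result about it. Of 22 listed Ly6/uPAR genes 14 had enough UMIs in epithelial barcodes, with a median log2 ratio of 0.19 against 0.04 over all genes, and only Ly6a, a surface antigen of mouse progenitor cells, reached 1 (1.04, from 45.6 to 95 CPM), while Ly6h was lowest (-0.32). The study also lists Ly6a as a marker of matrix FBs, and the part of FB RNA in its epithelial level was not tested. None of the 4 WAP-domain genes tested reached 1 in either direction, with Wfdc21 highest (-0.08), the protease inhibitor Slpi lowest (-0.36) and a median of -0.14. The related PLAC8-domain genes had too few UMIs. Of 12 genes of thyroid hormone handling none reached 1, from Klf9, a thyroid hormone target (0.35), to the transporter Slc7a5 (-0.18), with a median of 0.08. All 10 interferon genes were tested and none reached 1, with Ifit3 highest (0.06), Ifi44 lowest (-0.87) and a median of -0.29. Of 8 genes tested from the list drawn up for secretory defence, S100a6 was higher (1.09) and the lysozyme gene Lyz1 lower (-2.40, from 20.04 to 2.98 CPM). S100a6 was listed with other S100 genes, and a role of it in defence was not tested. It correlated with Psca over epithelial barcodes (r = 0.25 with fibrogenic and 0.24 with normal FBs). Of 10 p53 targets none reached 1, from the cell-cycle inhibitor Cdkn1a (0.64) to Sesn2 (-0.13), with a median of 0.40.

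The 4 lung libraries were not used to choose the genes and hold FBs without cultured epithelium. In FB-gated lung barcodes Psca had 0 UMIs in all 4 libraries, which allows at most 0.444 and 0.258 CPM after a single dose of PBS and bleomycin and 0.0483 and 0.0459 CPM after repeated doses. Plac8 was at 55.1 CPM with PBS and 328 CPM with bleomycin after a single dose, 5.96-fold higher (5.36 to 6.65), and at 32.6 and 142 CPM after repeated doses, 4.35-fold higher (4.14 to 4.56). The share of FB barcodes with a Plac8 UMI was 13.7% and 68.4% after a single dose (median depths 6913 and 11290 UMIs) and 13.2% and 33.6% after repeated doses (10551 and 2681 UMIs). Plac8 was thus higher with bleomycin in both pairs, where the cultured FBs stood at 1.35-fold, and no test of the difference between lung and culture was made. Crym was at 14.1 and 7.57 CPM after a single dose and 9.80 and 6.02 CPM after repeated doses, 1.86-fold (1.38 to 2.51) and 1.63-fold (1.43 to 1.85) higher with PBS.

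Wfdc17 in lung FBs was at 24.6 and 18.9 CPM after a single dose and at 1.82 and 30.9 CPM after repeated doses. Most of it lay in barcodes with at least 2 myeloid markers, which held 158 of 166 and 201 of 220 UMIs after a single dose and 106 of 113 and 1934 of 2017 UMIs after repeated doses. Without them the levels were 1.28 and 2.18 CPM and 0.117 and 1.39 CPM, all below 2.5 CPM, where FBs in culture without such barcodes were at 112 and 165 CPM. Among lung FB genes with at least 100 UMIs, 6.4% were at a log2 ratio of 1 or more and 3.63% at minus 1 or less after a single dose, and 7.24% and 2.37% after repeated doses. Of the 3 members with enough UMIs, Plac8 (2.55) passed after a single dose, and Plac8 (2.09) and Wfdc17 (3.50) after repeated doses.

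**Figure D4:**
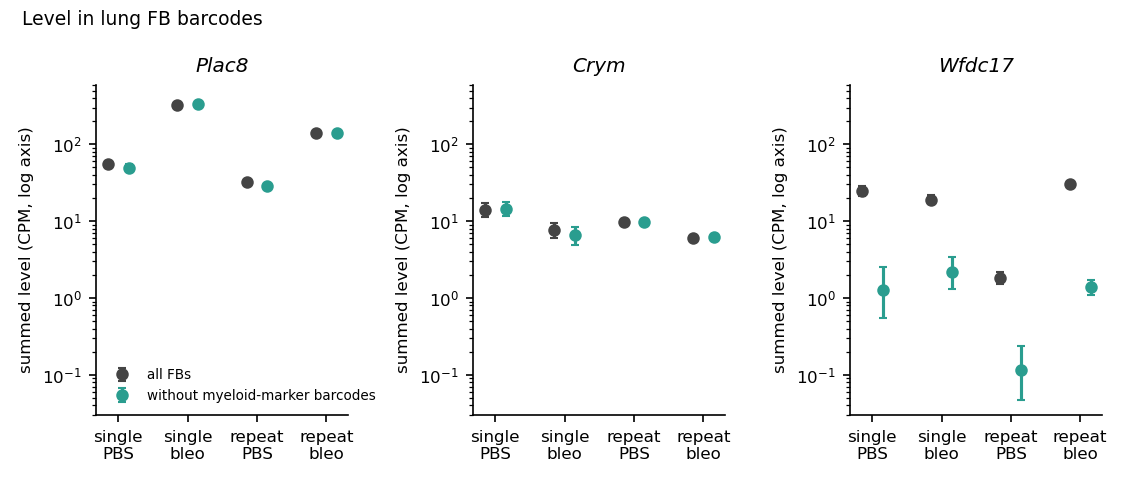
Level of Plac8, Crym and Wfdc17 in FB barcodes of the 4 lung libraries in CPM (log axis, 95% Poisson intervals), for all FB barcodes and without barcodes carrying at least 2 of 8 myeloid markers. Plac8 was higher with bleomycin in both experiments with or without those barcodes, whereas Wfdc17 fell to 2.18 CPM or less in every library without them.

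The epithelial ratios kept their direction under most processing, as the plot of log2 ratios by setting shows. The exception was the removal of barcodes with a collagen UMI, which left 235 and 56 barcodes and put Crym below 0. The Psca value there rests on 5 and 0 UMIs, and the interval of its ratio reaches 5.29, so its direction is not determined. The Crym value there rests on 406 and 41 UMIs. The spread between those barcodes was not measured, so its direction is uncertain.

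**Figure D5:**
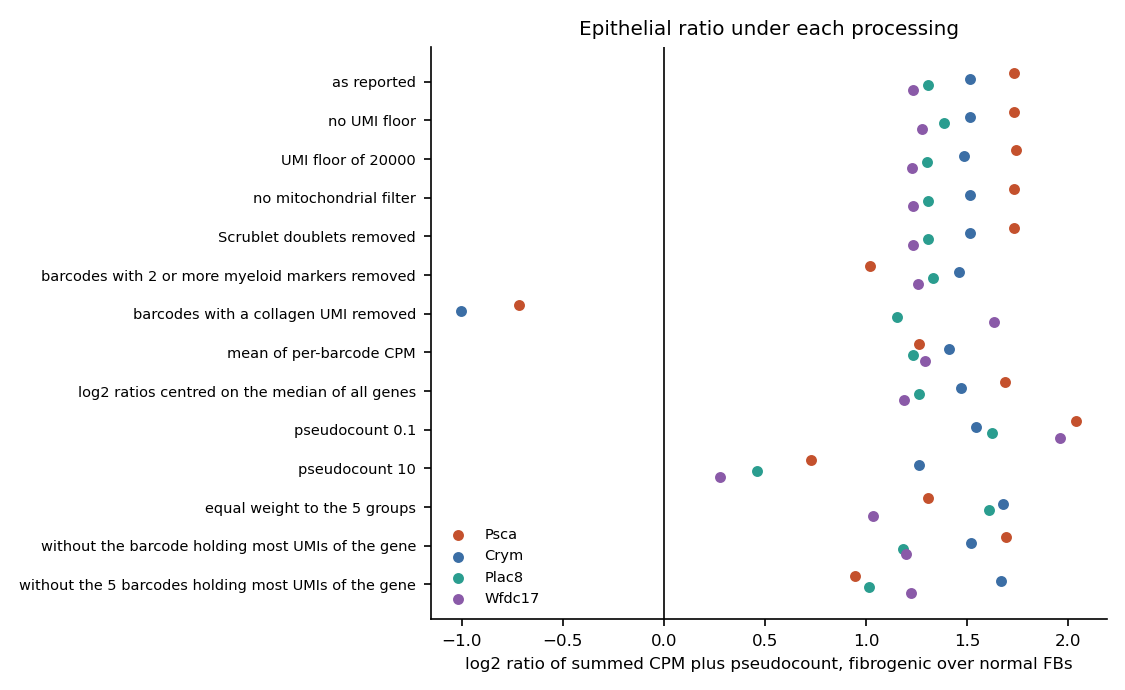
Log2 ratio of the epithelial level with fibrogenic over normal FBs for each gene (1 point per gene and setting), after adding 1 CPM or the named pseudocount, as reported and under each alternative. Points lie right of 0 except for Crym (-1.0) and Psca (-0.72) when barcodes with a collagen UMI were removed, and the Psca point rests on 5 and 0 UMIs, which do not determine its sign.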

How the data were processed

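Single-cell RNA was counted in 6 mouse libraries, 1 per condition. The UMI counts per gene and barcode, with no normalization, are those the authors deposited; the submitters' processing notes name Cell Ranger 3.0.1, Seurat 3 and the build mm10. Depth was 211680702 and 238618743 UMIs in the organoid libraries and 7201081 to 68354458 in the lung libraries.

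The members and gene lists were chosen with earlier results of these data known. Gate limits were set on marker levels after the files were opened. FBs were gated like epithelium, with the ratio reversed and at least 3 markers of the gate's own kind required. Cycling barcodes had at least 5, AEC2-like at least 100 and AEC1-like or PATS-like at least 30 marker UMIs per 10000. The limits were applied in that order, so a non-cycling barcode past the AEC2 limit was AEC2-like whatever its AEC1 or PATS level. AEC1-like barcodes also had more AEC1 than PATS marker UMIs. No doublet caller was applied in the main analysis. UMIs were summed per library and group, scaled to CPM, and set against each other as log2 ratios with a pseudocount of 1 CPM. Intervals are 95% Poisson, conditional and Clopper-Pearson, and take the UMIs or barcodes of a library as independent. A count of 0 allows 3 counts. The filter of 100 UMIs per gene took both libraries of a comparison together. Over all epithelial barcodes Wfdc17 passed it at 55 and 175 UMIs, so only through the fibrogenic library. With 1 library per condition no test was made. The genes named were the members, the highest and lowest of each list, and the 3 genes most correlated with each member among those found in at least 2% of fibrogenic-library epithelial barcodes, ranked in that library alone, so that a gene such as Plet1, found in 2.23% of fibrogenic and 0.771% of normal barcodes, could pass through the library where it was higher; for Plac8 these were Vgll3 (r = 0.19 with fibrogenic and -0.01 with normal FBs), Mgp (0.18 and 0.02) and Paqr5 (0.18 and -0.02), and for Wfdc17 Xlr5a (0.14 and -0.01), Hoga1 (0.12 and 0.04) and Aph1b (0.12 and -0.02), too weak in sparse counts to be a finding. The 91 FB genes, the 18 highest epithelial ratios, the genes like Plac8 and Wfdc17 in FBs and those compared within Psca or Crym barcodes were named after their values were seen. The alternatives tried are in the closing section. Sums, intervals and thinning were tested on simulated Poisson counts. Those counts had no clumping of a gene in few barcodes, so coverage of the intervals in these data was not tested. Python 3.11.15, numpy 2.4.6, scipy 1.17.1, pandas 2.3.3 and scanpy 1.11.5 were used.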

Additional observations from a re-analysis of the deposited data

Results flagged for a closer look

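The Wfdc17 level in lung FBs moved in opposite directions in the 2 bleomycin experiments: its log2 ratio of bleomycin over PBS was -0.36 after a single dose and 3.50 after repeated doses. The difference between the experiments was not tested, since each condition had 1 library. Without FB barcodes carrying at least 2 of 8 myeloid markers the log2 ratios were 0.48 (8 and 19 UMIs) and 1.10 (7 and 83 UMIs).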

How the results depend on the processing

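Of 52 recomputed epithelial ratios of the 4 genes, 33 stayed close to the reported value in the same direction, among them 4 after Scrublet, which removed no epithelial barcode. The other 17 moved and 2 reversed. By group, leaving out the barcode with most UMIs of the gene (chosen after seeing the data) took Crym in cycling barcodes from 0.31 to -0.08 and Psca in AEC2-like barcodes from -0.01 to 0.03. Removing epithelial barcodes with a collagen UMI reversed the log2 ratio of Crym (-1.0, 406 and 41 UMIs), with 56 fibrogenic barcodes left; the cause was not tested. It put Psca at -0.72, which counts among the 2 but rests on 5 and 0 UMIs and does not determine a direction, and Wfdc17 at 1.63 (1 and 4 UMIs). A pseudocount of 0.1 CPM gave 2.04 (Psca), 1.62 (Plac8) and 1.96 (Wfdc17), and 10 CPM gave 0.73 (Psca), 0.46 (Plac8), 1.26 (Crym) and 0.28 (Wfdc17). Equal weight to the 5 groups gave 1.31 (Psca), 1.61 (Plac8) and 1.68 (Crym), and the mean of per-barcode CPM 1.26 (Psca) and 1.41 (Crym). The barcodes left over, 4 and 9, made 1 of those groups. Their Crym level of 0 and 40.5 CPM came from 10 UMIs in 1 fibrogenic barcode and weighed fully in the value for Crym. Removing barcodes with at least 2 myeloid markers put Psca at 1.02. The following were chosen after seeing the data. Without the 5 barcodes holding most UMIs of the gene the ratios were 0.94 (Psca), 1.02 (Plac8) and 1.67 (Crym). Without barcodes of at least 2 myeloid markers Wfdc17 was at 0.55 in cultured FBs, and in lung FBs Plac8 was at 2.72 (single dose) and 2.27 (repeated doses) and Wfdc17 at 0.48, reversed from -0.36 (single dose), and 1.10 (repeated doses). Without FB barcodes carrying Epcam or Cdh1, an alternative listed at the outset, FB ratios were 0.46 (Plac8), 0.45 (Crym) and 0.68 (Wfdc17). Scrublet marked 2 of 5441 and 0 of 8894 barcodes (0.0368% of the first), too few to have worked, so doublets were in effect not removed. Leaving out a replicate was not possible with 1 library per condition. No paired analysis was possible because each condition had 1 library and the results come from no test. Levels of a few UMIs, such as Psca in AEC2-like or Crym in PATS-like barcodes, were too low at this depth to show a difference.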
